A study of Mus musculus with 8 samples.

Results

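Pre-hemogenic endothelium (pre-HE) is a small group of arterial endothelial cells (EC) of the embryonic aorta-gonad-mesonephros region (AGM). Its members were taken as the cells that the deposited annotation names preHE, 248 of 15168 annotated cells. The study applied CITE-seq, which counts RNA and antibody-derived tags (ADT) bound to surface proteins in the same cell, to AGM cells of mouse embryos (embryonic day 10.5) that had been sorted for CD31. Each of the 8 libraries held cells of 1 genotype from 2 to 5 pooled embryos, so a library is a pool and not an animal. The 5 WT libraries are labelled C57BL/6. The paper describes the embryos of its first CITE-seq experiment as wildtype, and for its knockout crosses it calls littermates without Cre WT. Which of these each WT library holds is not stated, so the WT libraries are not taken as littermate controls. The 3 Meis1-flox/VE-Cre libraries carry floxed Meis1 alleles with Cre driven by the VE-Cadherin promoter, which is active throughout endothelium and therefore also in the ancestors of the blood cells that arise from it. No agent was given in either group, and the loss of Meis1 in each single cell was not measured.

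Hematopoietic stem and progenitor cells first arise in the AGM from the wall of the dorsal aorta, where hemogenic endothelium (HE) switches on Runx1, rounds up and joins intra-aortic clusters in the endothelial-to-hematopoietic transition (EHT). Pre-HE is the arterial state placed ahead of this switch, in which endothelial junctions and Notch signalling are still in place. Meis1 is a homeodomain transcription factor that acts with Hox partners in blood stem cells.

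Pre-HE was found in every library. The WT libraries held 39, 18, 11, 87 and 16 pre-HE cells in the order WT 1 to WT 5, and the Meis1-flox/VE-Cre libraries held 29, 33 and 15. The 9 other annotated types were arterial EC (aEC, 1512 cells), 4 venous EC clusters (vEC_1 to vEC_4, with 2853, 2706, 2486 and 1372 cells), EHT cells, erythro-myeloid progenitors (EMP), myeloid cells and megakaryocytes (Mk). The clusters were drawn by the study from RNA, so the RNA of pre-HE beside that of other clusters is given below as a description without a test, whereas the antibody tags took no part in the clustering and were tested.

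Libraries differed in depth along with genotype. Total UMIs (unique molecular identifiers, 1 per captured transcript) ran from 20484881 to 79429129 per library. The median per cell was 26572 to 28553 in WT 1 to WT 4, but 12720.5 in WT 5 and 9611.5 to 14895 in the Meis1-flox/VE-Cre libraries. The CD44 tag was counted only in WT 5 and the 3 Meis1-flox/VE-Cre libraries, and WT 4 has no tags, so depth, antibody panel and genotype cannot be told apart except through WT 5. Of all cell barcodes, 33 occurred in more than 1 library, and 2 of these were on pre-HE cells. The row named CreERT2 held 34 UMIs in the Meis1-flox/VE-Cre libraries and 0 in WT. Meis1 itself was at 38.7, 51.4, 32.4, 23.7 and 12.9 CPM (UMIs scaled to 1000000 per sum of cells) in the pre-HE cells of WT 1 to WT 5, and at 29.7, 9.57 and 53.0 CPM in the Meis1-flox/VE-Cre libraries. These ranges overlap, and since the kit counts the 3′ end of transcripts while, by the study's methods, the loxP sites flank exon 8, the Meis1 level does not check the genotype.

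Pre-HE cells carried less RNA than their neighbours. Their median UMI count was 12250, 12534, 15263, 13771 and 8851.5 per cell in WT 1 to WT 5 and 6413, 5978 and 6477 in the Meis1-flox/VE-Cre libraries, below that of each other cell type in 8 of 8 libraries. The ratio to aEC ran from 0.580 to 0.912 and that to EHT from 0.359 to 0.654. The median share of mitochondrial UMIs was above that of aEC in 8 of 8 libraries, at 2.84 to 4.34% in pre-HE. Because the study kept only cells with over 2000 genes, the low UMI count placed part of pre-HE near that limit: 44.8, 63.6 and 60% of the pre-HE cells of the Meis1-flox/VE-Cre libraries held fewer than 2500 genes, against 1.15 to 25% in the WT libraries. At equal depth the order turned. After each cell was thinned to 5000 UMIs, pre-HE had the most genes detected, with a mean over library medians of 2126 ± 53.7 (SD, n = 8), against 2004 in aEC, 2032 in EHT and 1933 in EMP, and it was above every other type in 8 of 8 libraries. Scrublet called 118 of all cells doublets (0.778%) and 0 of the 248 pre-HE cells, which allows a share of calls of up to 1.21%. Doublets that Scrublet does not call are not covered by this limit.

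The 6 genes that mark pre-HE were checked first. Gja5, which encodes a gap junction connexin of arteries, ran from 302 to 714 CPM over the libraries (median 452), beside a mean of 1.90 CPM in aEC and 5.73 in EHT. The homeobox gene Nkx2-3 ran from 134 to 272 CPM (median 227), beside 52.9 in EHT, and the arterial tyrosine kinase gene Bmx ran from 70.8 to 156 CPM (median 115). These 3 genes stood above all other types in every library. The other 3 were shared with blood cells. Sdpr, a caveolar coat protein gene, was at a median of 275 CPM in pre-HE and a mean of 290 in Mk. Cd44, the hyaluronan receptor gene, was at a median of 56.6 CPM in pre-HE and means of 65.4 in EHT and 66.0 in myeloid cells. Procr, which encodes the endothelial protein C receptor, was at a median of 80.1 CPM with a mean of 47.5 in EHT. All 6 were higher than in aEC in 8 of 8 libraries. Since the clusters were drawn and named from the same RNA, this describes pre-HE and does not test its name.

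Within pre-HE the markers were not spread evenly over cells, as counted after thinning to 5000 UMIs, which 235 of the 248 cells reached. Gja5 was detected in 198 of the 235 (84.3%), beside 0.867% of aEC and 2.47% of EHT cells. Nkx2-3 was seen in 55.3%, Sdpr in 67.2% and Bmx in 40.9% of pre-HE cells. Cd44 and Procr were each seen in 30.6%, and for Cd44 the share in EHT was 28.5% and in aEC 0.6%. The second arterial connexin gene, Gja4, was the most uniform of these, with a UMI in 98.3% of pre-HE and 24.3% of aEC cells. Runx1, the transcription factor that opens the EHT, had a UMI in 3 of 235 pre-HE cells (1.28%), close to the 0.667% of aEC and far from the 58.6% of EHT.

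Across the transcriptome, 357 of the 4706 genes of at least 30 CPM in pre-HE (7.59%) stood above all 9 other types in every library, and 144 of the 4449 genes of at least 30 CPM in the other types (3.24%) stood below all of them. This balance depends on the scaling, since TMM, the trimmed mean normalisation of edgeR, gave 233 highest and 419 lowest genes. The type next below pre-HE for these 357 genes was most often aEC (144 genes) or vEC_4 (128), then EHT (41). The Spearman correlation across genes between pre-HE and each other type was taken within each library and averaged over libraries. It was 0.839 ± 0.032 (SD, n = 8) for vEC_4, 0.837 ± 0.038 for aEC, 0.722 ± 0.029 for EHT and 0.586 ± 0.017 for EMP. For vEC_1, vEC_2 and vEC_3 the correlation was 0.821 ± 0.031, 0.806 ± 0.029 and 0.810 ± 0.029. By overall profile pre-HE was therefore as near to vEC_4 as to aEC, with the other venous clusters close behind. The genes that led pre-HE were nonetheless arterial.

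The 20 genes with the greatest distance to the next type are given by the kind of protein they encode. The first by this measure was Tmem100, a transmembrane protein gene that BMP signalling switches on in arterial endothelium. It ran from 459 to 745 CPM over the 8 libraries, with a median of 627, while the mean was 5.80 CPM in aEC and 4.36 in EHT. The distance to the highest other type in each library was 5.17 ± 0.52 on the log2(CPM + 10) scale (SD, n = 8), a scale that understates changes of low genes. Gja5 followed at 4.86 ± 0.52 and Gja4 at 3.30 ± 0.48. Gja4 ran from 1159 to 1662 CPM, against a mean of 143 in aEC. Gja4 and Gja5 thus differed in how far pre-HE parted from aEC, since aEC held some Gja4 and almost no Gja5.

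Tm4sf1, which encodes a small membrane protein of endothelium, lay between them at 4.18, with 445 to 927 CPM in pre-HE. The Notch-induced repressor gene Hey2 (2.94) ran from 57.9 to 153 CPM with a mean of 4.29 in aEC. Efnb2 (2.34), the arterial ephrin ligand gene, ran from 249 to 441 CPM. Vegfc (2.56), a growth factor gene best known from lymphatic growth, ran from 172 to 240 CPM. Transcription factor genes among the 20 leading genes were Hey2, the LIM-homeodomain gene Isl1 (2.77; 53.0 to 173 CPM) and Mecom (2.33 ± 0.25; 281 to 465 CPM), a zinc finger factor required by blood stem cells. Mecom had means of 58.1 CPM in aEC and 65.3 in EHT, so its highest level lay in pre-HE and not in the cells already in transition.

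Several of the remainder encode proteins that act outside the cell. Htra1, a secreted serine protease gene, stood 3.47 above the next type with 45.1 to 324 CPM. Ltbp4 (3.03; 45.1 to 188 CPM) encodes a binding protein of latent TGF-beta, and Fbn1 (2.53; 90.1 to 285 CPM) the microfibril protein fibrillin. Dkk2 (2.58), a Wnt modulator, had a median of 57.9 CPM, and Pcsk5 (2.59), a proprotein convertase, had a median of 89.4. Smad6 (2.31), an inhibitor of BMP signalling, ran from 51.5 to 164 CPM. Ctsh, a lysosomal protease gene, Npr3, the natriuretic peptide clearance receptor gene, Bmx, Tagln and the metallothionein gene Mt3 completed the 20, at 2.65, 2.51, 2.83, 2.44 and 2.23. The order has no natural break at its end, where Smad6 and Mt3 were just inside and Pi16 (2.21) and Cyp26a1 (2.20) just outside.

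**Figure D1:**
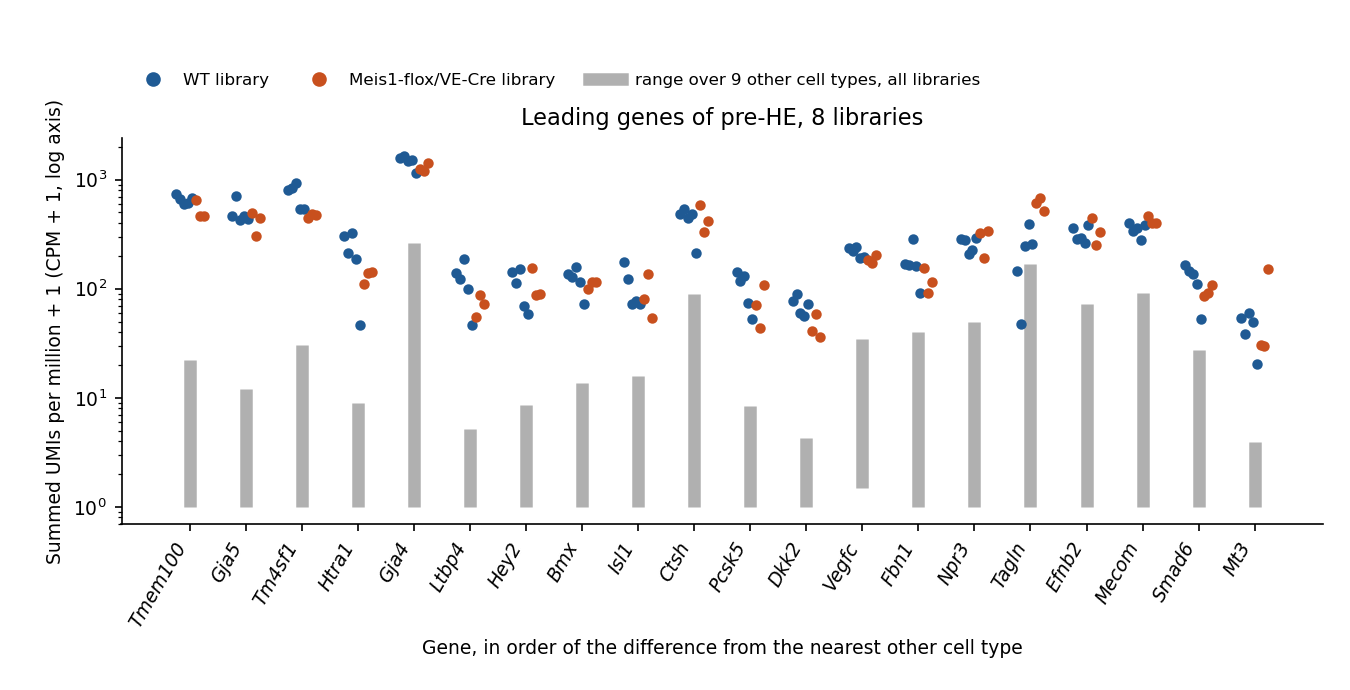
CPM + 1 on a log axis of the 20 leading genes of pre-HE, with 1 point per library coloured by genotype and a bar for the range over the 9 other cell types in all libraries. For 19 of the 20 genes all points lie above the bar of the other types, and for Tagln 2 points lie within it (46.7 and 146 CPM, with Mk reaching 167 in another library). Tmem100, at 459 to 745 CPM in pre-HE, has the widest gap and Gja4, at 1159 to 1662 CPM, a narrower one.

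The arterial programme as a whole was higher in pre-HE than elsewhere. Of 16 arterial genes, 14 stood above all other types in every library (13 after TMM scaling), as 3.92% of the 9501 genes measured did (1.59% stood below all), and the median difference from aEC was 1.63 on the log2(CPM + 10) scale, beside 0.02 for all genes measured, of which 10.6% were higher and 9.02% lower than in aEC in every library. Scaling by TMM lowered the median of all genes by 0.14 against aEC and the arterial median to 1.41. The Notch ligand gene Dll4 ran from 90.8 to 186 CPM and the Notch target gene Hey1 from 144 to 313, with means of 40.9 and 65.8 in aEC. Sox17, a transcription factor of arterial and hemogenic endothelium, ran from 345 to 566 CPM against a mean of 197 in aEC. Single cells showed the same: the median pre-HE cell had UMIs of 9 of the 16 arterial genes at 5000 UMIs, the median aEC cell of 3 and the median EHT cell of 0. Venous genes were low, with 0 of 8 above aEC in every library and 2 below it (4 after TMM scaling). The apelin receptor gene Aplnr, for example, had a median of 5.61 CPM in pre-HE and a mean of 208 in aEC. Against vEC_4, the venous cluster with the nearest profile, 8 of 8 venous genes were lower in every library (median -2.63), beside 10.4% of all genes higher and 9.26% lower.

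Pan-endothelial genes were retained and in part higher. Cdh5, which encodes VE-Cadherin, ran from 833 to 1185 CPM, against a mean of 365 in aEC, and Pecam1, which encodes CD31, from 354 to 635 against 254. Of the 12 pan-endothelial genes, 6 were higher than in aEC in every library and 0 lower (median 0.41), while TMM scaling gave 4 and a median of 0.18. Against EHT, where endothelial identity is being lost, 11 of 12 were higher in every library, with a median difference of 2.30 (all genes, 16.7% higher and 18.3% lower).

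Genes that respond to blood flow or act on vessel tone were also high in pre-HE. Of these 9 genes, 8 were above aEC in every library (6 after TMM scaling), with a median of 1.19. Edn1, which encodes the vasoconstrictor endothelin, ran from 373 to 1021 CPM with a mean of 171 in vEC_4, the next type. Vwf, the von Willebrand factor gene, ran from 277 to 927 CPM with a mean of 126 in Mk. Klf2, the transcription factor induced by laminar flow, ran from 436 to 1095 CPM and was above every other type in 7 of 8 libraries.

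The matrix and TGF-beta lists moved in the same direction. In the list of elastic fibre and matrix genes, 8 of 14 stood above all other types in every library and 9 above aEC (median 1.10). Fibronectin (Fn1) ran from 470 to 1445 CPM beside a mean of 199 in EHT, and the basement membrane collagen gene Col4a1 from 817 to 1460. Some elastic fibre genes were near the floor, such as Lox with 16 UMIs in all pre-HE cells. In the list of TGF-beta and BMP pathway genes, 8 of 15 stood above all other types (6 after TMM scaling). Targets and inhibitors of the pathway (Id1, Id3, Smad6 and Smad7) were among them, with medians of 813, 1743, 108 and 217 CPM, as were the receptor genes Acvrl1, Bmpr2, Tgfbr3 and Eng. The ligand genes were not, and Bmp4 had 21 UMIs in all pre-HE cells. Of 7 caveolae genes, 4 stood above all types (Cav1, Cav2, Ptrf and Prkcdbp).

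**Figure D2:**
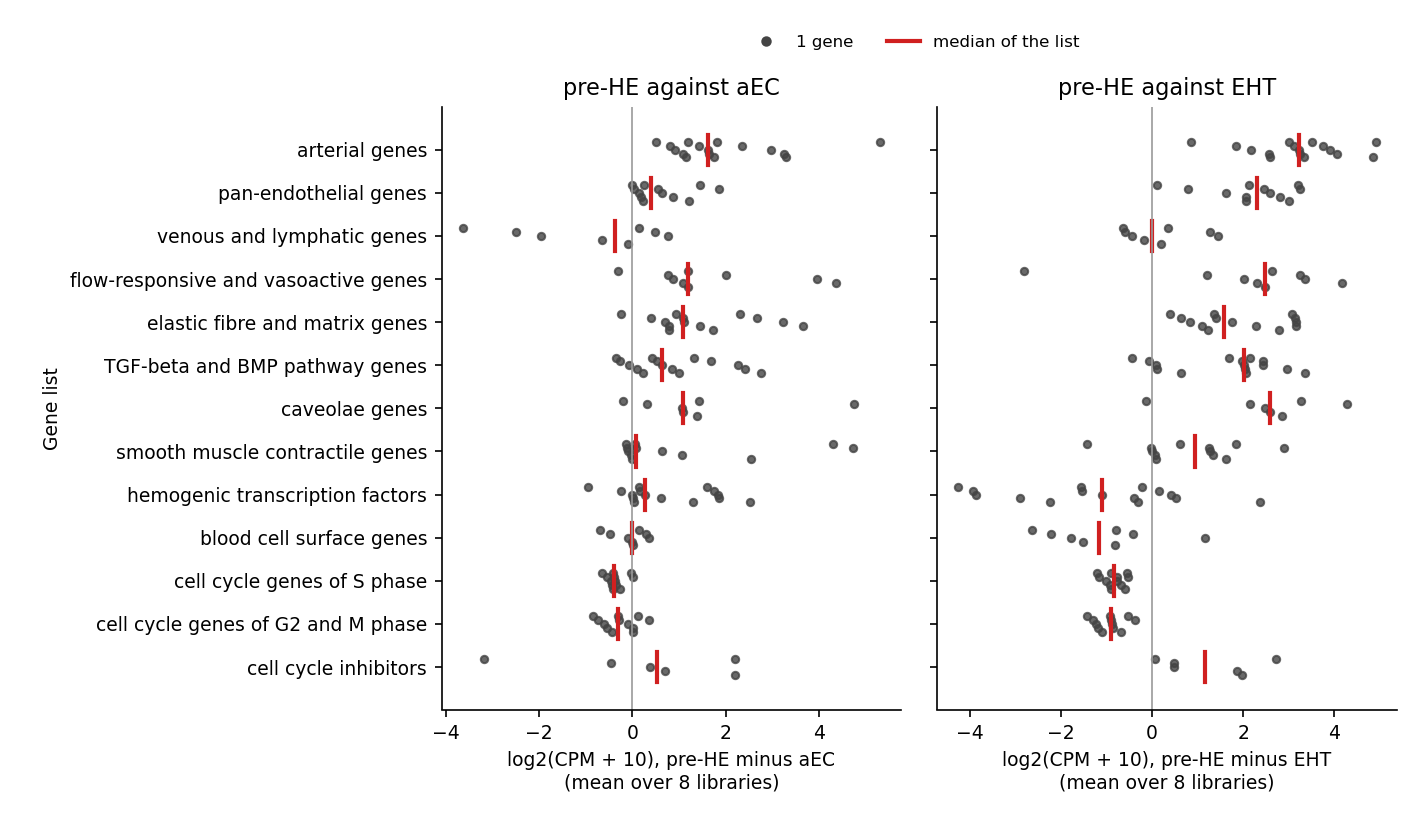
Difference of log2(CPM + 10) between pre-HE and aEC (left) and between pre-HE and EHT (right), with 1 point per gene as the mean over 8 libraries and a red line at each list's median. Arterial genes lie to the right in both panels (medians 1.63 and 3.23), whereas hemogenic transcription factors straddle 0 against aEC (median 0.27) and lie to the left against EHT (median -1.10).

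Hemogenic transcription factors split. Mecom aside, members above aEC in every library included Gata2, Lyl1, Hoxa9 and Meis1, all regulators of early blood cells. The hematopoietic factor gene Gata2 ran from 38.6 to 107 CPM with a mean of 11.9 in aEC and 50.2 in EHT. Lyl1, a bHLH factor gene, ran from 57.4 to 126 CPM, with means of 22.5 and 111. Factors that execute the EHT stayed near 0: Runx1 had 9 UMIs in 4 cells, Gfi1 had 7 UMIs, Spi1 8 and Gfi1b 0 in all pre-HE cells together. Against EHT, 8 of the 15 were lower in every library. Lmo2, a bridging factor of blood and vessel development, was lower than in aEC in 8 of 8 libraries, with means of 308 and 599 CPM.

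Cell cycle genes were low relative to EHT and the venous clusters, apart from G2 and M genes in vEC_4. The difference was less clear relative to aEC. Of 12 S-phase genes, 9 were lower than in EHT in every library (median -0.84), and of 12 G2 and M genes likewise 9 (median -0.91). Against aEC only 1 of each 12 was lower in every library, with medians of -0.40 and -0.30, and TMM scaling raised these counts to 6 and 4. Without TMM scaling, the S-phase counts against vEC_1 to vEC_4 were 10, 7, 10 and 8. The G2 and M counts were 7, 11, 11 and 0, with medians of -0.83, -1.41, -1.31 and -0.20. The proliferation marker Mki67 had a UMI in 16.6% of pre-HE cells, 18.7% of aEC and 40.6% of EHT cells at equal depth. Among cyclin-dependent kinase inhibitors the members differed. Cdkn1c ran from 858 to 1771 CPM, above all types in every library, with a mean of 294 in aEC, while Cdkn1a had a median of 16.3 CPM and a mean of 183 in aEC and was lower in 8 of 8 libraries.

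Genes lowest in pre-HE were led by Samsn1, a blood cell adaptor gene, at a median of 0 CPM and a highest value of 6.44. Of the others, Odc1, the gene of the rate-limiting enzyme of polyamine synthesis, ran from 38.9 to 115 CPM with a mean of 423 in aEC (-1.17 to the lowest other type). Mif, a cytokine gene, ran from 234 to 614 CPM against 1168 in aEC (-1.23). Nme1, a nucleoside diphosphate kinase gene (-1.11), Asns, the asparagine synthetase gene (-1.04), and Nhp2, a ribonucleoprotein gene of rRNA and telomerase (-0.92), followed the same order. Gmfg, Anapc15, Mpp6 and Ubash3b made up the 10.

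Markers of other cells that a CD31+ gate could hold were read as sums over each list. Mesenchyme and pericyte markers summed to 25.7 to 82.9 CPM in pre-HE and 0 to 6.62 in aEC, with 4 of 11 (Pdgfrb, Postn, Lum and Cspg4) at 0 in every pre-HE cell. Erythroid markers summed to 55.3 to 302 CPM (aEC 28.3 to 211), myeloid markers to 0 to 33.5 (aEC 7.31 to 37.0) and Mk markers to 6.48 to 36.4 (aEC 13.5 to 35.9). Epithelial markers, nearly all of them Krt18, summed to 13.0 to 86.2 CPM (aEC 0 to 1.29; EHT 49.4 to 83.4). The mesenchyme and epithelial sums did not overlap with aEC, and their part in the levels above was not tested.

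The surface tags gave a view of pre-HE that the annotation had not used. Over all 6 tags and 9 cell types, 34 of 54 comparisons passed an exact sign-flip permutation test over libraries at a Benjamini-Hochberg (BH) adjusted p under 0.05. CD43, a sialoglycoprotein of early blood cells, was counted at a mean of 51.8, 55.0, 37.4 and 8.31 tags per pre-HE cell in WT 1, 2, 3 and 5 and at 10.8, 5.67 and 4.13 in the Meis1-flox/VE-Cre libraries. The aEC of the same libraries had 36.3, 37.9, 14.3 and 4.82 and then 5.51, 3.63 and 1.57. Pre-HE was higher in 7 of 7 libraries, by 0.88 ± 0.36 on the log2 scale (SD), or 1.84-fold (exact permutation p = 0.0156, the smallest that 7 libraries allow; BH adjusted p = 0.0325). The mean difference was 0.50 to 0.94 against the 4 vEC clusters, and pre-HE was again higher in 7 of 7 libraries. EHT cells lay far above, with pre-HE lower by a log2 value of -3.67.

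That call for CD43 rests on the full set of libraries. With any 1 library left out the difference from aEC was 0.79 to 0.94 and the adjusted exact permutation p 0.0527 to 0.0649, since the smallest p is then 0.0313. With the median tag count in place of the mean it was 0.79 (adjusted exact permutation p = 0.0804), and after a centred log ratio 0.33 (0.0865), while per 10000 RNA UMIs it was 1.36 (0.0496). Spn, the gene that encodes CD43, had 1 UMI in all pre-HE cells.

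CD44 separated pre-HE from other endothelium more widely, in the 4 libraries that carried it. Mean tags per cell were 39.6 in WT 5 and 53.4, 48.0 and 23.5 in the Meis1-flox/VE-Cre libraries for pre-HE, while the vEC clusters lay lower by log2 values of 2.88 to 3.39. EHT cells had more CD44 than pre-HE in all 4 (log2 -1.75), and EMP (-2.0), myeloid cells (-2.87) and Mk (-0.81) were higher too. With 4 libraries the exact permutation p cannot go below 0.125, which each of these reached.

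The share of positive cells drew out how the tags differ. A cell was counted above the aEC range when its tag count exceeded the 95th percentile of the aEC of its library. For CD44 this held for 74 of 93 pre-HE cells (79.6%; 68.8 to 89.7% by library) and 98.9% of EHT cells. For CD43 it held for 32 of 161 pre-HE cells (19.9%; 12.5 to 27.3% by library) and 93.8% of EHT cells. For the other tags the share was 1.24% for CD117 (aEC 4.78%), 3.73% for CD41 (aEC 4.69%), 4.97% for CD45.2 (aEC 5.20%) and 6.83% for CD27 (aEC 4.61%). Within the pre-HE cells of each library, CD43 and CD44 tags varied together, with Spearman rho of 0.80, 0.33, 0.67 and 0.68 across 16, 29, 33 and 15 cells that share a library and a staining.

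CD117, the stem cell factor receptor encoded by Kit, was lower in pre-HE than in aEC by a log2 value of -0.38 ± 0.27 in 6 of 7 libraries (BH adjusted exact permutation p = 0.0496), but the direction turned to 0.095 per 10000 RNA UMIs. Kit RNA was low as well, at a median of 14.8 CPM against means of 34.4 in aEC and 162 in EHT. CD41, an integrin of megakaryocytes and early blood progenitors, differed from aEC by -0.08 ± 0.46 (exact permutation p = 0.719), with the opposite sign per 10000 RNA UMIs (0.38), for median counts (0.14) and without Meis1-flox/VE-Cre 3 (0.050). CD45.2, the pan-leukocyte tag, stood at -0.35 against aEC (adjusted exact permutation p = 0.0666; 0.12 per 10000 RNA UMIs), and Ptprc, its gene, had 0 UMIs. CD27 stood at -0.02. Against EHT the log2 differences were -2.81 for CD117, -3.43 for CD41, -0.70 for CD45.2 and -1.15 for CD27.

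**Figure D3:**
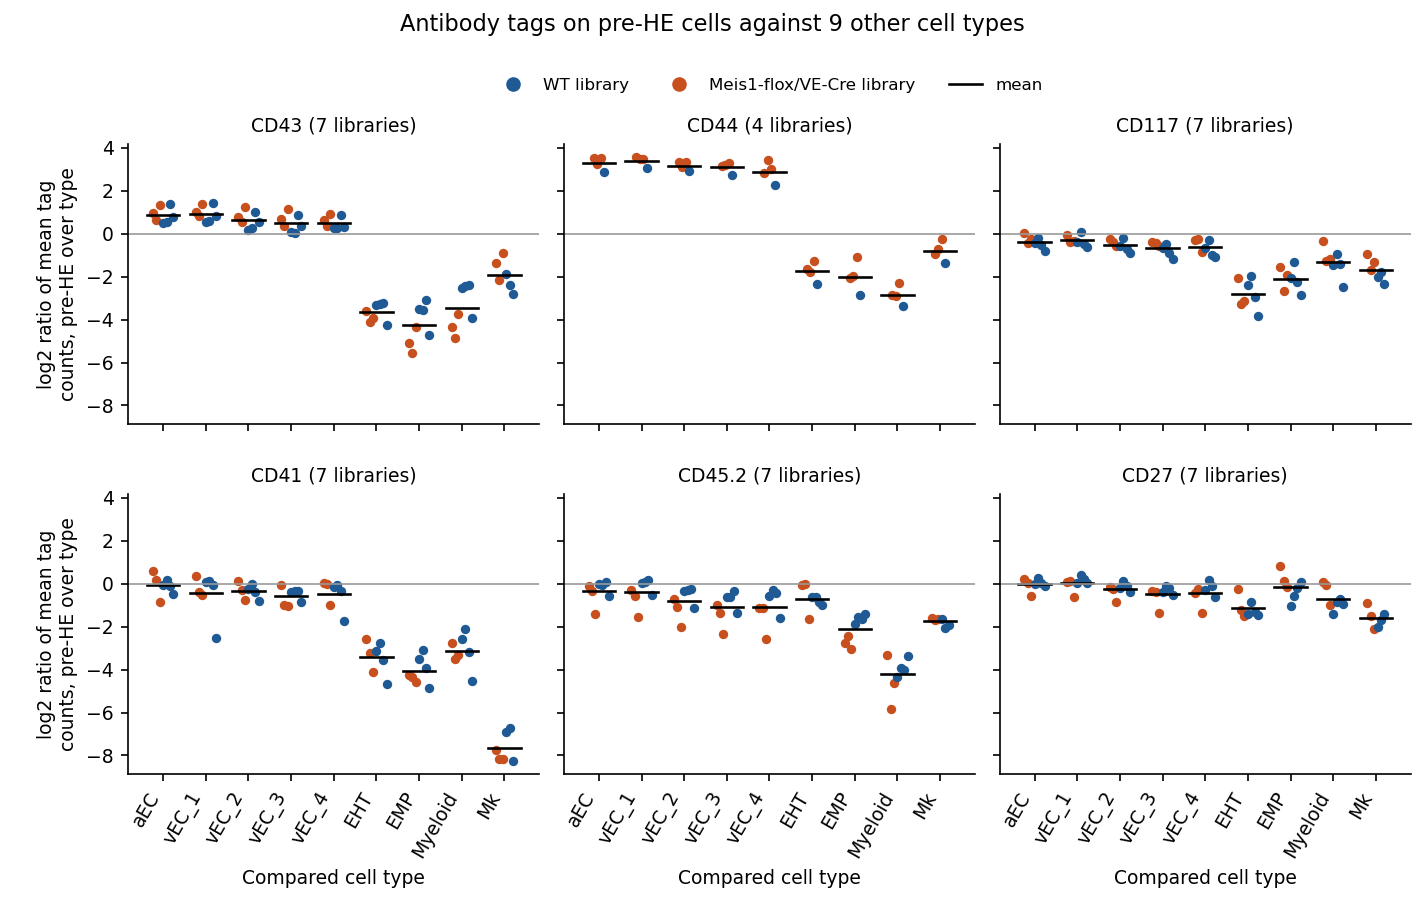
Log2 ratio of mean tag counts per cell, pre-HE over each other cell type, with 1 panel per antibody, 1 point per library coloured by genotype and a black line at the mean. Against the endothelial types the mean lines lie near 3 for CD44 (4 libraries) and between 0.50 and 0.94 for CD43 (7 libraries). Single libraries of CD43 run from 0.0195 (against vEC_3) to 1.42 (against vEC_1). Both tags lie below 0 for EHT and blood cells.

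Between genotypes the share of pre-HE did not differ beyond the spread of the libraries. It was 2.54, 1.18, 1.69, 3.35 and 0.757% of all cells in WT 1 to WT 5 and 1.30, 1.35 and 0.728% in the Meis1-flox/VE-Cre libraries. The means were 1.90 ± 1.05% (SD, n = 5) and 1.12 ± 0.344% (SD, n = 3), a difference of -0.78 percentage points (exact permutation test, two-sided, p = 0.304, where 5 against 3 libraries can reach 0.0179). The WT range holds 2 of the 3 Meis1-flox/VE-Cre values, and the lowest value of each group is nearly equal. As a share of aEC, pre-HE and EHT cells together the means were 11.7 ± 5.48% and 8.88 ± 2.01% (exact permutation p = 0.446). A test of pooled cells, which treats cells of 1 pool as independent, gave a difference of -0.89 points (Fisher's exact test, p = 1.46e-05).

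Depth differs between the libraries of both genotypes, and its part in this share was looked at by thinning each library to the same median UMIs per cell (9611.5, that of Meis1-flox/VE-Cre 2) and applying the limit of 2000 genes again, a setting chosen after the data had been seen. Of the pre-HE cells of WT 1 to WT 5, 22 of 39, 5 of 18, 7 of 11, 44 of 87 and 13 of 16 were kept, and of the Meis1-flox/VE-Cre libraries 23 of 29, 33 of 33 and 4 of 15, whereas 88.7 to 100% of all cells were kept in each library. In 7 of 8 libraries pre-HE cells were thus lost more often than cells at large. The shares became 1.13 ± 0.636% (n = 5) and 0.881 ± 0.590% (n = 3), a difference of -0.25 points (exact permutation p = 0.607).

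**Figure D4:**
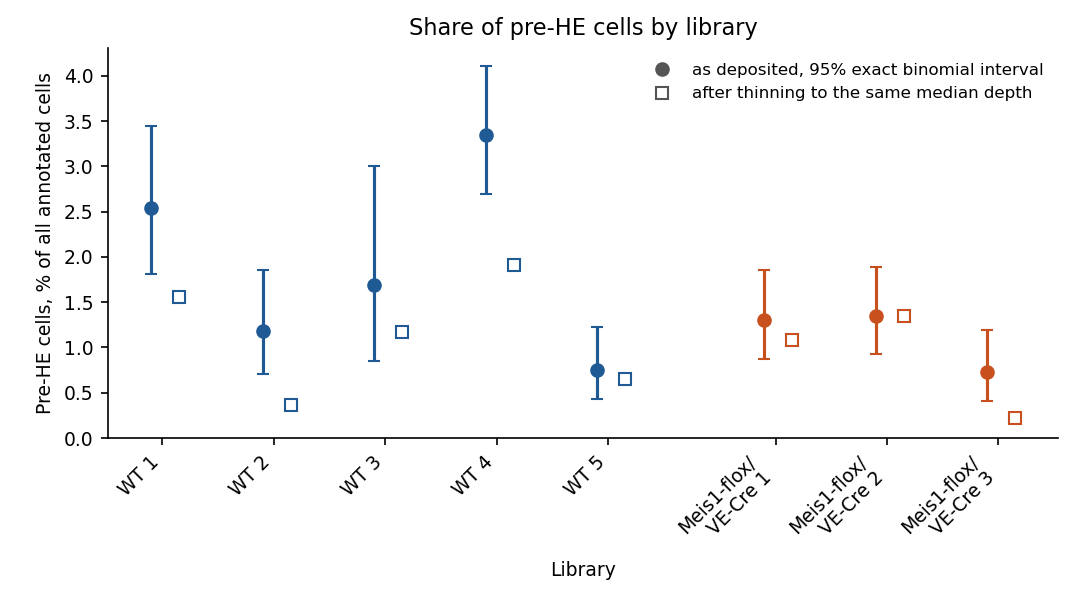
Pre-HE cells as a percentage of all annotated cells of each library, with filled circles for the deposited cells and their 95% exact binomial intervals (counting error only) and open squares after thinning to the same median depth. WT 4 is highest at 3.35%, and thinning lowers all 5 WT libraries as well as Meis1-flox/VE-Cre 1 (1.30 to 1.08%) and 3 (0.728 to 0.218%), while Meis1-flox/VE-Cre 2, whose median was the target, stays at 1.35%.

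Gene expression within pre-HE was compared between genotypes by edgeR's quasi-likelihood test on the counts summed over the pre-HE cells of each library, with BH adjustment over 3682 genes and a threshold of 0.1. This called 18 genes (0.489%), 13 higher in Meis1-flox/VE-Cre (0.353%) and 5 lower (0.136%), with 263 genes at an unadjusted p under 0.05. Of the 20 leading genes of pre-HE, Tagln was among them. None of the 6 markers, of the 14 arterial genes tested (median log2 fold change -0.15), of the 12 pan-endothelial or of the 6 hemogenic transcription factor genes tested passed. Gja5 was at 500 ± 121 CPM in WT and 411 ± 98.0 in Meis1-flox/VE-Cre.

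Some genes of the contractile actin cytoskeleton were called higher in Meis1-flox/VE-Cre pre-HE. Of the 12 smooth muscle contractile genes, 6 were high enough to be tested, 3 of those were called higher (Acta2, Myl9 and Tagln) and all 6 fold changes were above 0 (median 1.09; all genes tested, -0.00). In 4 of the 6 every Meis1-flox/VE-Cre value lay outside the WT range, which held for 5.05% of all genes tested. Actc1, the cardiac alpha-actin gene, was called as well. These proteins form actin filaments or work with them, in muscle and, at lower levels, in cells that remodel their cytoskeleton.

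For 3 of these genes, RefSeq promoter windows (mouse GRCm38.p6, 250 bases before to 50 after the start) are printed to show whether a CArG box, the site that serum response factor binds in muscle genes, lies there. Capitals mark exact matches to CCWWWWWWGG, where W is A or T. They begin 47 bases before the start in Actc1 (chr2:114052826-114053125, minus strand) and 161 bases before it in Myl9 (chr2:156775214-156775513, plus strand). The Acta2 window (chr19:34255324-34255623, minus strand) holds no exact match. It does hold ccctatatgg and ccttgtttgg, each a single base away from the pattern. Such near matches also lie in the Actc1 window (ccctatatgg, for example) and the Myl9 window (ccttgtaagg, for example). Near matches were not counted in any window.

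Actc1: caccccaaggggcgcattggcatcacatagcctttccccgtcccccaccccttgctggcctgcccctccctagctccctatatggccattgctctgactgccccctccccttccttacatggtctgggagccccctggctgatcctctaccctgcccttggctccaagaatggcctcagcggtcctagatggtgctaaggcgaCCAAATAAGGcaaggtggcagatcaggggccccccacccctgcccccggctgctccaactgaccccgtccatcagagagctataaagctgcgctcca

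Myl9: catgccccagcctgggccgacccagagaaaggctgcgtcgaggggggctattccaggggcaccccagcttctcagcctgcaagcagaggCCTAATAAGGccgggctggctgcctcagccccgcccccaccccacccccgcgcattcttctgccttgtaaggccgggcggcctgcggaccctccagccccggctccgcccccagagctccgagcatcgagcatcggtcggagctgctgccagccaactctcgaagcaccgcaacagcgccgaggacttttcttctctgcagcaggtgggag

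Acta2: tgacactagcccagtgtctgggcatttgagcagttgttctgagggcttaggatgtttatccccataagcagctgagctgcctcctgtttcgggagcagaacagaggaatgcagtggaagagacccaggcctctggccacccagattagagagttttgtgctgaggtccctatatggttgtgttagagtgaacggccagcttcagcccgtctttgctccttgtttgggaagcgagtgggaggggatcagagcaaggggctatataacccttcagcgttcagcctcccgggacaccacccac

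An exact match to the box occurred in 2 of the 9 windows of smooth muscle contractile genes (22.2%). It occurred in 0 of the 20 windows of the 20 leading genes of pre-HE and in 1.63% of all 32851 windows. The smooth muscle list holds Myl9 but not Actc1. In each list 3 genes were not matched to a window. Near matches, such as those in Acta2, are left out of these counts. The Meis-type motif TGACAG, read on both strands, occurred in 4 of the 20 windows of the leading genes (20%) and in 19.2% of all windows. A match of letters in a window is a description and does not show binding.

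Acta2, the smooth muscle alpha-actin gene, was at 94.2, 82.2, 226, 414 and 320 TMM-scaled CPM in the pre-HE of WT 1 to WT 5 and at 1571, 783 and 416 in the Meis1-flox/VE-Cre libraries. All 3 values lie above all 5 WT values, although the lowest of them, 416, is next to the 414 of WT 4. The log2 fold change was 2.01 (SE 0.39, BH adjusted p = 0.0191, edgeR). Without Meis1-flox/VE-Cre 1 it was 1.39 (BH adjusted p = 0.315, edgeR).

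Myl9, a regulatory light chain gene of myosin, was at 74.2, 46.2, 73.0, 121 and 116 TMM-scaled CPM in WT and at 207, 238 and 298 in Meis1-flox/VE-Cre, a log2 fold change of 1.40 (SE 0.26, BH adjusted p = 0.0154, edgeR). Tagln, whose product binds actin filaments, was at 158, 51.4, 277, 445 and 291 TMM-scaled CPM and then at 693, 772 and 618, a log2 fold change of 1.45 (SE 0.34, BH adjusted p = 0.0840, edgeR). The groups did not overlap for either gene. Actc1 was at 4.01, 5.14, 0, 9.95 and 7.28 TMM-scaled CPM in WT and at 78.3, 75.6 and 490 in Meis1-flox/VE-Cre (log2 fold change 4.59, SE 0.63, BH adjusted p = 0.0012, edgeR). Neither Myl9 nor Actc1 was particular to pre-HE. Without TMM scaling, Myl9 was at 229 to 727 CPM in WT Mk, against 42.0 to 106 in WT pre-HE. Actc1 was at 35.6 to 111 CPM in WT Mk, against 0 to 8.70 in WT pre-HE. In Meis1-flox/VE-Cre Mk they were at 70.2 to 415 and 0 to 95.9 CPM.

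Of these calls, that of Tagln held least. It was lost without WT 1 or 3 or any 1 of the Meis1-flox/VE-Cre libraries (BH adjusted p = 0.136 to 0.253, edgeR). It was made in 9 of 19 alternatives, against 15 of 19 for Acta2 and 16 of 19 for Myl9. Actc1 was called in each of the 17 alternatives in which it was tested. In the others, among them the one without its top cell, it was too low to be tested, so its count is not set beside those of the other genes. With a term for each library's median depth in the fit, Acta2, Myl9 and Tagln were at 1.40, 1.21 and 1.17 with a BH adjusted p of 0.962 each (edgeR). DESeq2 did not call Acta2 (adjusted p = 0.489) or Tagln (adjusted p = 0.790).

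The transcripts were spread unequally over cells. Tagln had a UMI in 26.7 to 56.3% of the pre-HE cells of a library, Myl9 in 22.2 to 62.5% and Actc1 in 0 to 10.3%. Acta2 had a UMI in 9 of 39, 6 of 18, 5 of 11, 29 of 87 and 3 of 16 pre-HE cells of WT 1 to WT 5 and in 10 of 29, 9 of 33 and 2 of 15 of the Meis1-flox/VE-Cre libraries. In Meis1-flox/VE-Cre 3 a single cell held 38 of the 39 Acta2 UMIs, and the only Actc1-positive cell held all 46 of that gene. For Actc1 the top cell held 12 of 14 UMIs in Meis1-flox/VE-Cre 1 and 11 of 14 in Meis1-flox/VE-Cre 2. For Acta2 the top cell held 139 of 281 UMIs in Meis1-flox/VE-Cre 1 and 51 of 145 in Meis1-flox/VE-Cre 2. In WT 5 it held 38 of 44, so concentration in 1 cell was seen in both genotypes.

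When the cell with most UMIs of a gene was left out of each library, a setting added after the data had been seen, Acta2 was at 50.6, 59.9, 135, 216 and 43.2 CPM (without TMM scaling) in WT 1 to WT 5 and at 732, 464 and 9.61 in Meis1-flox/VE-Cre. Meis1-flox/VE-Cre 3 then lay below every WT library. The log2 fold change of Acta2 was 1.95 with an adjusted p of 0.137 in edgeR, and those of Myl9 and Tagln were 1.10 (adjusted p = 0.167) and 1.22 (adjusted p = 0.430), while Actc1 was too low to be tested. Hence none of the 4 muscle genes remained called without its top cell, and 8 genes in all were called.

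**Figure D5:**
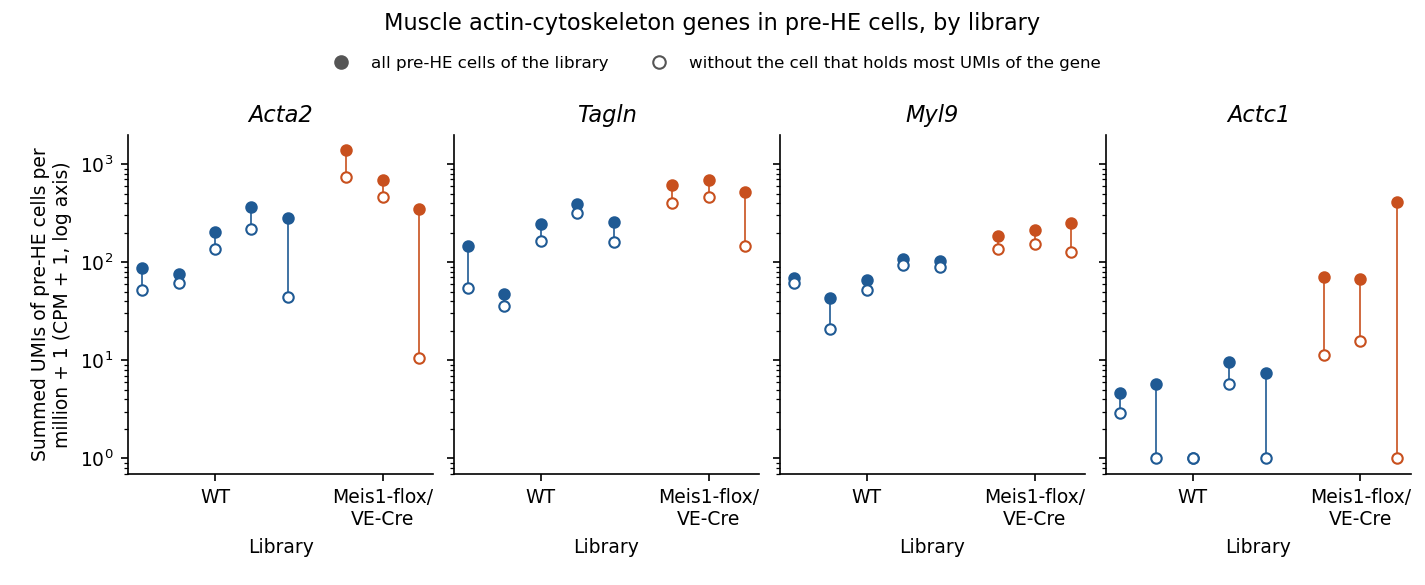
CPM + 1 on a log axis of 4 actin-cytoskeleton genes in the summed pre-HE cells of each library, by genotype, with filled points for all cells and open points without the cell that holds most UMIs of the gene. Without TMM scaling, Acta2 in Meis1-flox/VE-Cre 3 drops from 345 to 9.61 CPM and Actc1 there from 407 to 0, whereas Myl9 drops only from 248 to 125.

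Pre-HE cells with and without Acta2 were also set side by side. In a further draw of 5000 UMIs per cell, 54 pre-HE cells had an Acta2 UMI and 181 had none. Tagln was seen in 59.3% of the former and 21.0% of the latter, Myl9 in 42.6 and 23.8%, and Actc1 in 14.8 and 1.66%. Cdh5 was seen in 100 and 97.8%, Pecam1 in 81.5 and 88.4%, Gja5 in 79.6 and 80.7%, Mecom in 68.5 and 77.3% and Bmx in 37.0 and 43.6%. The pericyte marker Pdgfrb and the mesenchymal marker Pdgfra had no UMI in either set of cells in this draw. Rgs5 was seen in 1.85 and 0%, Col1a1 and Dcn each in 1.85 and 0.552%, and Col1a2 in 7.41 and 4.97%, which is 1 cell against 0, 1 against 1 and 4 against 9. No test was made of these shares. As a share of cells with a UMI at equal depth, Acta2 was seen in 23.4% of pre-HE, 0.533% of aEC and 17.1% of EHT cells, so its detection differed between types of the same libraries.

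Several of the remaining called genes followed the library as much as the genotype. Of the 5 greatest rises, Pam16, a mitochondrial import gene, was at 0, 0, 0, 1.81 and 72.8 TMM-scaled CPM in WT 1 to WT 5 and at 64.8 to 117 in Meis1-flox/VE-Cre. On the same scale, Rpl27 and Rps27, which encode ribosomal proteins, were at 35.9 to 85.0 and 118 to 443 CPM in WT 1 to WT 4, at 371 and 1885 in WT 5 and at 526 to 608 and 2090 to 4094 in Meis1-flox/VE-Cre. WT 5 thus sat with the other genotype. Among the greatest falls the same order was seen for Arl6ip5, at 148 to 164 CPM in WT 1 to WT 4, 0 in WT 5 and 5.40 to 21.3 in Meis1-flox/VE-Cre. It was also seen for Rpl9-ps6 (56.5 to 94.9, 0 and 0 to 10.8) and AY036118 (1292 to 1519, 473 and 281 to 330). For Rnf10 and Gm42418 the log2 fold changes were -1.51 and -1.37.

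With WT 5 as the only WT library, which compares libraries of 1 antibody panel and of more similar depth, 3 genes were called: Actc1 (4.47), Rhob (2.01), a small GTPase gene that acts on actin, and Acta2 (1.57, BH adjusted p = 0.0093, edgeR, the spread being taken from the Meis1-flox/VE-Cre libraries). Myl9 and Tagln were at 1.05 and 1.27 in this fit and did not pass. The log2 fold changes of Rpl27, Rps27 and Pam16 were 0.63, 0.54 and 0.21 and that of AY036118 -0.62, none of them called. Rpl9-ps6 is a pseudogene and AY036118 and Gm42418 overlap repeated ribosomal sequence, so reads there can be split between copies and their values are uncertain.

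Whether these differences were greater in pre-HE than in aEC of the same libraries was tested by the interaction of cell type and genotype, which cancels what both cell types of a library share. It called 5 of 9489 genes (0.0527%), all in the direction of pre-HE (465 at an unadjusted p under 0.05). These were Actc1 with a log2 difference of 5.31 (SE 0.93, BH adjusted p = 0.000839, edgeR), Tagln with 1.85, Myl9 with 1.61, Ptp4a3 with 1.10 and Ctla2a with 1.14. For Tagln the log2 difference between pre-HE and aEC was 3.42, 1.91, 3.98, 4.17 and 4.18 in WT 1 to WT 5 and 5.61, 5.31 and 5.09 in Meis1-flox/VE-Cre, without overlap (edgeR BH adjusted p = 0.0076). For Myl9 it was 1.88, 1.13, 1.53, 2.30 and 2.36 and then 3.30, 3.16 and 3.84, also without overlap (edgeR BH adjusted p = 0.0135). Non-overlap of this kind was found for 4.70% of all genes.

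Ptp4a3, a protein tyrosine phosphatase gene, and Ctla2a, a cysteine protease inhibitor gene, differed in another way, since both were lower in WT pre-HE than in WT aEC. The Ctla2a difference was -2.33, -2.07, -3.46, -1.09 and -2.18 in WT and -0.73, -0.64 and -0.98 in Meis1-flox/VE-Cre (edgeR BH adjusted p = 0.0275). That of Ptp4a3 was -1.30, -1.30, -1.16, -0.98 and -0.16 in WT and 0.18, -0.17 and 0.03 in Meis1-flox/VE-Cre, where WT 5 overlaps the other genotype (edgeR BH adjusted p = 0.0261). For Ctla2a the genotypes also did not overlap in EHT (means of 166 CPM in WT and 263 in Meis1-flox/VE-Cre) and in EMP (36.1 to 128 and 203 to 271 CPM), whereas in aEC they overlapped (271 to 333 and 273 to 321). For Ptp4a3 they did not overlap in Mk (102 to 123 and 191 to 204) and overlapped in EHT (134 to 232 and 222 to 273). Without the top cell of each gene, Ctla2a (1.24, adjusted p = 0.0022), Ptp4a3 (1.21, adjusted p = 0.0063) and Tagln (1.97, adjusted p = 0.0277) were still called by edgeR. Cyba (0.83) was added and Myl9 was at 1.32 (adjusted p = 0.539, edgeR). Actc1 was too low to be tested in that setting. Acta2 was at 0.26 in the interaction (adjusted p = 1.00, edgeR), with aEC at 0 to 4.08 CPM in all libraries. DESeq2 and thinning to 5000 UMIs left only Actc1 called in the interaction, and so did leaving out Meis1-flox/VE-Cre 1; without Meis1-flox/VE-Cre 3 Actc1 was at 3.95 (adjusted p = 0.425, edgeR).

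Tags of pre-HE relative to aEC were also compared between genotypes. The CD43 ratio was 0.80 in WT and 0.98 in Meis1-flox/VE-Cre on the log2 scale (exact permutation p = 0.514), and the differences were 0.27 for CD117 (exact permutation p = 0.257), -0.47 for CD45.2 (exact permutation p = 0.286), 0.08 for CD41 (exact permutation p = 0.83) and -0.15 for CD27 (exact permutation p = 0.629). For CD44 only WT 5 stood for WT, and the difference of 0.56 had an exact permutation p of 0.25, the smallest that 1 library against 3 allows. None passed the threshold, which does not show that the genotypes act alike.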

How the data were processed

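Cells positive for CD31 were profiled by CITE-seq in 8 libraries (5 WT, 3 Meis1-flox/VE-Cre). The authors deposited UMI counts per gene and cell, counts of antibody-derived tags (ADT) and an annotation of cell types. Per the submitters' processing notes and the study's methods, reads were counted with Cell Ranger 3.0.2 on mm10, cells of over 2000 genes and under 10% mitochondrial UMIs were kept, and clusters were drawn from RNA and named by hand. Of 28014 file rows, 2 are no mouse genes (tdTomato, 0 UMIs; CreERT2, 34) and were left out of sums.

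Here counts of the cells of each type were summed per library (at least 10 cells, which left 1 WT library out of Mk comparisons) and scaled to CPM. Values of pre-HE against other types are within-library differences of log2(CPM + 10). Genes of at least 5 CPM were counted as measured. Genotype and interaction tests used edgeR 4.0.16 (quasi-likelihood, TMM, filterByExpr, R 4.3.3; the library as a block in the interaction), BH adjusted p under 0.1. Tag ratios used mean counts + 0.1. Shares of cells with a UMI came from cells thinned to 5000 UMIs. Exact binomial intervals are Clopper-Pearson at 95% and cover counting error only. Permutation tests are two-sided and measure the spread between pools of embryos. Python 3.11.15, scanpy 1.11.5, scipy 1.17.1 and DESeq2 1.42.0 were used.

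Genes were named by rule: list members; the 20 highest above and 10 lowest below all types (mean CPM of at least 30); and, of called genes with mean CPM of at least 30, the 5 greatest changes in each direction; Hdac1, Rhob and Cyba were named after their values were seen. The members and gene lists were chosen with earlier results of these data known. In simulated counts with 200 genes changed by 1.5 (log2), the genotype test found 86.5% of them among 3682 genes with 7.49% false calls, and the interaction 46.5% among 9489 genes with 5.10% false calls. The simulation drew sums and not single cells, so UMIs concentrated in a cell were not modelled. For the genotype test it also held no gene difference that follows depth or antibody panel. The shares of false calls therefore do not carry over to the calls in these data. Alternatives covered scaling, filters, DESeq2, thinning, doublets, a depth covariate, the replicate block and leaving out each library.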

Additional observations from a re-analysis of the deposited data

Results flagged for a closer look

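Single WT libraries stood apart from the other WT libraries in 7 of 58 groups of values checked by their gap. The rule marks about 1 in 20 groups of independent normal values, which these are not, so no comparison with chance is drawn. For 6 of the 7 the library was WT 5, each time in a gene that was checked because the genotype or interaction test had called it. In its pre-HE cells Pam16 was highest at 72.8 normalised CPM (the other WT libraries 0 to 1.81), Rpl27 at 371 (35.9 to 85.0) and Rps27 at 1885 (118 to 443), while Arl6ip5 was lowest at 0 (148 to 164) and AY036118 at 473 (1292 to 1519). The log2 difference of Ptp4a3 between pre-HE and aEC was also highest in WT 5, at -0.16 (the others -1.30 to -0.98). WT 5 shares its antibody panel and a lower depth with the Meis1-flox/VE-Cre libraries, and the part of either in these values was not tested. In WT 2, Gja5 was highest at 714 CPM (428 to 466).

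The contrast of pre-HE with aEC differed between genotypes, by the interaction term of edgeR with BH adjustment, for Actc1 (5.31), Tagln (1.85), Myl9 (1.61), Ptp4a3 (1.10) and Ctla2a (1.14).

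Outside the mouse genes, the row named CreERT2 held 34 UMIs in the Meis1-flox/VE-Cre libraries (12, 3 and 19) and 0 in the WT libraries. Of these, 29 were in endothelial clusters and 2 in pre-HE.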

How the results depend on the processing

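The share of pre-HE stayed lower in Meis1-flox/VE-Cre in each setting, by -1.07 to -0.42 points with 1 library left out, and only the test on pooled cells passed (-0.89, Fisher's exact test, p = 1.46e-05). Replicate numbers did not pair libraries: same-numbered pre-HE sums deviated together with correlations of 0.06, -0.03 and 0.04, and the blocked difference was -0.68 (exact permutation p = 0.5; smallest possible 0.25).

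The 18 genotype calls in pre-HE became 9 with DESeq2, 65 with no filter, 53 with sums of at least 20 cells, 2 with a depth covariate, 137 with a replicate block over libraries 1 to 3 (103 without the block in the same libraries), 3 with WT 5 as the only WT library, 8 without the top cell of each gene, and 8 to 79 with 1 library left out, the most without WT 5. With the depth covariate Rpl9-ps6 and Arl6ip5 turned to 0.40 and 1.66. The 5 interaction calls became 1 with DESeq2, 1 after thinning, 4 without the top cell of each gene, and 1 to 7 with 1 library left out (1 without Meis1-flox/VE-Cre 1 or 3).

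Of the 34 tag calls, 0 were left with median tag counts, 17 per 10000 RNA UMIs, 21 after a centred log ratio and 0 to 0 with 1 library left out, where the smallest p rises. Against aEC the direction turned for CD117 (0.095 per 10000 RNA UMIs), CD45.2 (0.12) and CD41 (0.38; 0.14 with medians; -0.19 to 0.050 with 1 library left out, the highest without Meis1-flox/VE-Cre 3).

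Genes highest in pre-HE in every library numbered 233 with TMM, 549 in WT libraries alone and 200 above 100 CPM; genes lowest numbered 419, 231 and, after thinning, 63. The flow-responsive list had 2 genes above all types with TMM. Detection of Gja5 was 65.7% at 3000 UMIs and 93.1% without thinning, and that of Acta2 and Tagln 29.4 and 39.5% without thinning. The cause of these changes was not tested. Among the values of single genes and tags, 248 kept their direction and their side of the threshold, 110 no longer passed, 6 passed newly and the 7 named above turned. With 11 to 87 pre-HE cells per library, genes of few UMIs are limited by depth.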

Other observations

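A keratin gene set pre-HE apart from other endothelium. Krt18, an intermediate filament gene of simple epithelia, ran from 13.0 to 83.0 CPM over the pre-HE of the 8 libraries (median 50.1), with means of 0.169 CPM in aEC and 59.7 in EHT. At 5000 UMIs per cell it had a UMI in 43 of 235 pre-HE cells (18.3%), 27.2% of EHT cells and 0.0667% of aEC. Other epithelial markers did not share this: Krt8, its usual partner, had 9 UMIs in all pre-HE cells, Epcam 1 and Cdh1 0.

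Tip-cell genes, which mark the leading cells of vessel sprouts, were split in pre-HE. Apln, Esm1, Kcne3 and Fscn1 were lower than in aEC in 8 of 8 libraries, for example Kcne3 with a median of 0 CPM against a mean of 76.0 in aEC. Plvap, which encodes a diaphragm protein of endothelial pores, was higher in 8 of 8 (869 to 1711 CPM against a mean of 453), and the chemokine receptor gene Cxcr4 in 7 of 8 (19.4 to 96.6 CPM against 16.3). Alox12, a lipoxygenase gene of platelets, was at 25.7 to 56.0 CPM in pre-HE with a mean of 0.762 in aEC and 380 in Mk.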
